A study of Mus musculus with 36 samples.

Results

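Ckm, Ckmt2, Ckb and Ak1 encode kinases that move high-energy phosphate within the cell, and their transcripts were followed in mouse hearts while an Akt1 transgene was switched on and off. The members were all probe sets on the Affymetrix chips 430A and 430B whose platform annotation gave one of these symbols alone. This gave 6 probe sets for 4 of the 18194 genes named on the chips, 5 on chip 430A and 1 on chip 430B, among 45265 probe sets in all. All 6 passed the filter on low signals, and 0 probe sets named a member together with another gene. Ckm and Ak1 had 2 probe sets each, and Ckb and Ckmt2 had 1 each.

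Each of the 18 hearts was hybridised to both chips. All mice carried the same pair of transgenes, labelled Tet-myrAkt1/?MHC-tTA, in which 1 letter of the promoter's name is shown as a question mark. Such a myosin heavy chain promoter expresses the tetracycline-controlled activator tTA in heart muscle cells, and the activator in turn drives a myristoylated Akt1 that is held active at the membrane. The transgene had not been induced in the first group (4 hearts, mice aged 12 weeks) and had been on for 2 weeks in the next (4 hearts, aged 14 weeks). Another group had the transgene on for 2 weeks and then off for 2 days (4 hearts, aged 14 weeks and 2 days). In the remaining groups it had been on for 6 weeks (3 hearts, aged 18 weeks), or on for 6 weeks and then off for 2 weeks (3 hearts, aged 20 weeks). These groups are called before induction, 2 weeks on, 2 days off, 6 weeks on and 2 weeks off. No group without the transgenes was analysed here, and age rose with the time on the transgene, so that age and time on the transgene cannot be told apart. The hearts came from separate mice according to the design text, and a p-value here speaks only of the variation among them.

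Creatine kinases pass phosphate between ATP and creatine, which lets phosphocreatine buffer ATP where muscle uses it quickly. Ckm is the muscle isoform, bound in part to the M-band of the sarcomere, Ckmt2 is the isoform of muscle mitochondria, and Ckb is the brain isoform, which is expressed more in the fetal than in the adult heart. Ak1, the cytosolic adenylate kinase of muscle, converts a pair of ADP molecules to ATP and AMP, and AMP in turn acts on the AMP-activated kinase.

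The 250 bases before the RefSeq start of Ckb and of Ckm (assembly GRCm38.p6) are shown because these genes encode the alternative cytosolic isoforms. Across the groups, Ckb behaved differently from the brighter Ckm probe set. The dimmer Ckm probe set followed Ckb over the hearts (Pearson r = 0.82). Which of the pair reports the mature Ckm message is not settled, so a contrast between the genes is not established. The windows lie at chr12:111672339-111672588 on the minus strand for Ckb and chr7:19410844-19411093 on the plus strand for Ckm, and are written 5′ to 3′ along the gene. Capitals mark every match on either strand to the TATA box letters TATAAA, the CCAAT box or the E-box. The E-box was searched as CANNTG.
Ckb: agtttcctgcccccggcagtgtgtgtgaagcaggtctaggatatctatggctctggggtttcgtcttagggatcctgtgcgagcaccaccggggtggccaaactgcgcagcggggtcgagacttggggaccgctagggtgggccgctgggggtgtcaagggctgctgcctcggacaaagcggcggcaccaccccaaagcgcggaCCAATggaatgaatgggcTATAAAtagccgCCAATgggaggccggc
Ckm: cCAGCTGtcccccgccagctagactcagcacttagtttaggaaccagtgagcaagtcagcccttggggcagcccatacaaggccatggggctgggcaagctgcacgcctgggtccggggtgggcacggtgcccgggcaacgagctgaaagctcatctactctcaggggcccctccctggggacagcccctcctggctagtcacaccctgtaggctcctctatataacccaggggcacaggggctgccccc
The Ckb window held 1 TATAAA, whose first base lay at -28 from the start, 2 CCAAT at -46 and -16, and 0 CANNTG. The Ckm window held 0 TATAAA, 0 CCAAT and 1 CANNTG at -249. Only the exact letters TATAAA were searched, so the unmarked tatataa near the end of the Ckm window was not counted. The 0 therefore does not show that Ckm lacks a TATA box. Of the 32807 promoter windows of this length in the RefSeq table, 12.4% held TATAAA, 33.8% CCAAT and 66.2% CANNTG. A match describes these letters only and does not show that a factor binds there.

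The arrays, deposited at the same trimmed mean on each chip, had a median signal between 183 and 231.7 for chip 430A and between 60.9 and 78.9 for chip 430B. On chip 430A the medians at 6 weeks on (183 to 190) lay below those at 2 days off (213.7 to 229.4). The number of arrays limits the precision. The Akt1 probe set with the largest response followed the labels, with mean signals of 548 ± 69.7 (SD, n = 4) before induction, 2878 ± 645 (n = 4) at 2 weeks on, 718 ± 21.8 (n = 4) at 2 days off, 2365 ± 542 (n = 3) at 6 weeks on and 753 ± 106 (n = 3) at 2 weeks off. The other 3 Akt1 probe sets did not follow this course, and no source used here says which of them detects the transgene. All 8 heart muscle markers were measured, and 6 of them, among them Myh6 and Tnnt2, were not called against before induction. Ryr2, the cardiac calcium release channel, was called higher in all 4 later groups (0.90, 1.05, 0.62 and 1.19 from 2 weeks on to 2 weeks off), and Pln, the inhibitor of the calcium pump, was called lower at 2 and 6 weeks on (-0.39 and -0.71). All mice were labelled male, but hearts 3 and 4 before induction gave 2518 and 2170.2 on a probe set of Xist. Xist is a transcript of the inactive X chromosome in females, and the remaining hearts gave 4.4 to 92.8. Member and pathway results against this group were therefore also computed without hearts 3 and 4. The marker calls are given with all hearts only. Heart 3 at 6 weeks on had a 3'/5' signal ratio of Actb of 3.71 on chip 430A, against 0.95 to 1.92 in the other hearts.

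Ckb was the only member gene called in all 4 comparisons with the hearts before induction. Its signal rose with 2 weeks of Akt1 induction, was highest on average after 6 weeks, and lay above the level before induction in every heart of both repressed groups. Before induction the 4 hearts gave signals of 1288, 1216, 918.5 and 1113 (mean 1134 ± 161, SD, n = 4). At 2 weeks on the signals were 2532, 2268, 3054 and 3372 (2807 ± 499, n = 4). All 4 induced hearts lay above all 4 hearts before induction.

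After 2 days of repression Ckb gave 2420, 2781, 2999 and 3568 (2942 ± 481, n = 4), a range that overlapped that of the 2-week induced hearts. At 6 weeks on the signals were 3923, 3501 and 3562 (3662 ± 228, n = 3), above every heart of 2 weeks on. After 2 weeks of repression they were 2356, 2000 and 2924 (2427 ± 466, n = 3), below every heart of 6 weeks on and above every heart before induction. In bulk hearts a change in the number of cells of a type and a change in RNA per cell cannot be told apart.

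**Figure D1:**
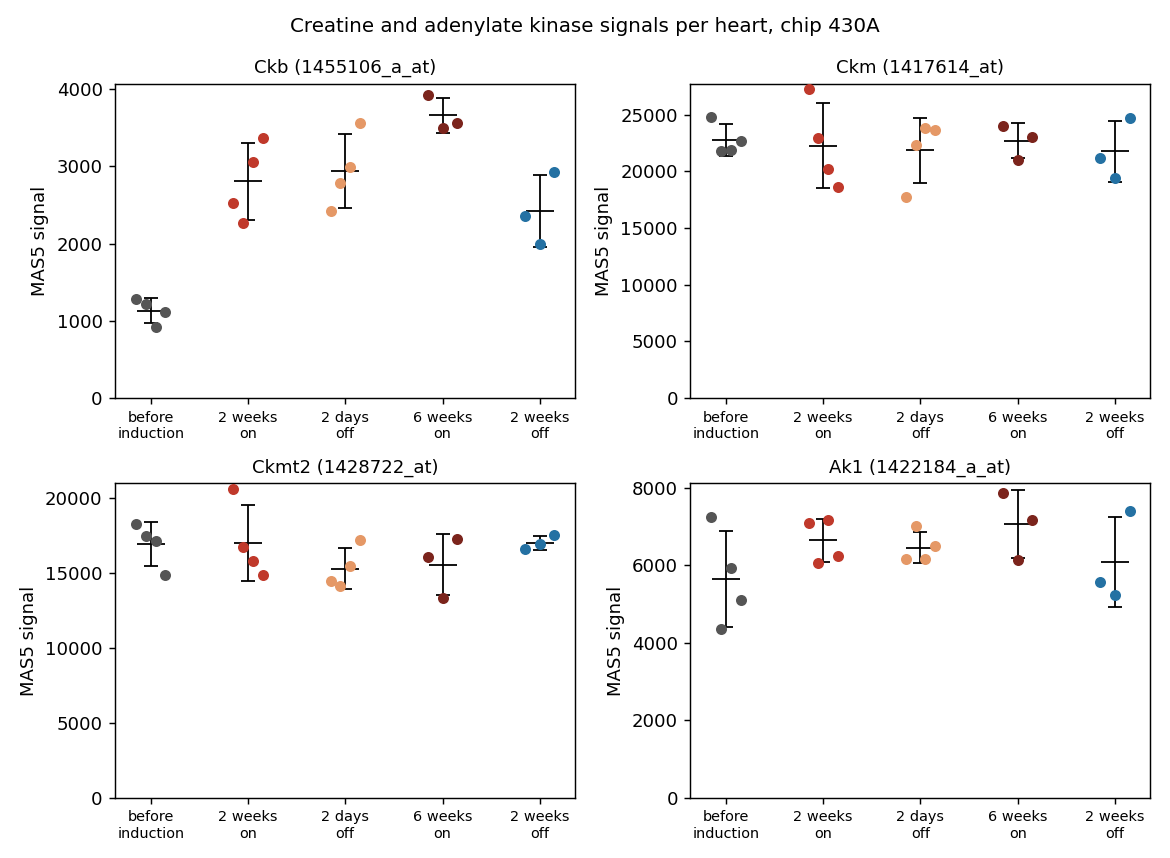
MAS5 signal of Ckb, Ckm, Ckmt2 and the bright Ak1 probe set on chip 430A in each of the 18 hearts by group, each point 1 heart, with lines at the group mean and SD. The Ckb hearts before induction lie between 918.5 and 1288 and all other Ckb hearts at 2000 or above, while the groups of Ckm, Ckmt2 and Ak1 overlap.

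Changes were tested with limma on the log2 scale after adding to each signal an offset (50.02 for chip 430A, 12.25 for chip 430B), which understates changes of dim probe sets. A change was called at a Benjamini-Hochberg adjusted p under 0.05 over all probe sets of a chip. At 2 weeks on, Ckb was higher than before induction by 1.26 ± 0.150 (log2 change ± SE, adjusted p = 4.12e-05), a ratio of mean signals of 2.48. It was the only member probe set of 6 called in this comparison, in which 4.29% of the 15565 probe sets tested on chip 430A and 1.22% of the 17519 on chip 430B were called higher. The median change of the 6 was 0.18, against -0.05 over all probe sets tested on chip 430A and -0.01 on chip 430B.

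After 6 weeks on, the Ckb change against the hearts before induction was 1.66 ± 0.162 (adjusted p = 2.58e-06), a ratio of means of 3.23. Here 2 of the 6 member probe sets were called higher, Ckb and the Ckm probe set of chip 430B, against 8.47% and 3.14% of all probe sets on chips 430A and 430B. The median of the 6 was 0.16, against -0.11 and -0.05 over the probe sets of the chips. Between 2 and 6 weeks on, Ckb changed by 0.39 ± 0.162, which missed the threshold (adjusted p = 0.159) although the hearts did not overlap. None of the 6 member probe sets was called between these groups, in which 6.59% of the probe sets of chip 430A and 1.81% of chip 430B were called in either direction.

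No change of Ckb was called after early repression. Against 2 weeks on, the difference at 2 days off was 0.07 ± 0.150 (adjusted p = 0.792). The Akt1 probe set with the largest response had fallen from a mean of 2878 to 718, against 548 before induction. From 2 weeks on to 2 days off none of the 6 member probe sets was called, where 18% of the probe sets on chip 430A and 2.35% on chip 430B were called. Ckb was still above the hearts before induction by 1.33 ± 0.150 (adjusted p = 6.47e-05), a ratio of means of 2.59, the only member probe set called. In that comparison 2.6% and 1.03% of all probe sets were called higher on chips 430A and 430B.

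Late repression was accompanied by a partial fall of Ckb. From 6 weeks on to 2 weeks off the signal fell by 0.60 ± 0.173 (log2, adjusted p = 0.0211), to 0.663 of the mean signal. Ckb was the only one of the 6 called lower, against 7.74% of the probe sets on chip 430A and 1.46% on chip 430B. The call was lost without heart 1 at 6 weeks on (-0.55, adjusted p = 0.0621), heart 1 at 2 weeks off (-0.59, adjusted p = 0.0509) or heart 2 at 2 weeks off (-0.47, adjusted p = 0.107). Against the hearts before induction Ckb remained higher at 2 weeks off by 1.06 ± 0.162 (adjusted p = 0.00164), a ratio of means of 2.14 and again the only member called, where 1.61% and 0.782% of all probe sets on the chips were called higher.

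The late fall of Ckb was not shown to differ from the early response to repression. The difference between the late and early responses was -0.67 ± 0.229 (adjusted p = 0.185), with none of the 6 members called against 0.893% of the probe sets on chip 430A and 0.0913% on chip 430B. Ordered by mean signal, the groups ran from before induction over 2 weeks off, 2 weeks on and 2 days off to 6 weeks on. Of these neighbours only before induction and 2 weeks off differed by the test. The difference of 2 weeks off from 2 weeks on was -0.21 (adjusted p = 0.474), and that of 2 days off from 6 weeks on was -0.32 (adjusted p = 0.15). The latter was called with arrays set to a common median (-0.56, adjusted p = 0.0404). At the settings used throughout, 0 of the 6 member probe sets were called at 2 days off against 6 weeks on (26.6% and 5.57% of all probe sets on chips 430A and 430B called), at 2 weeks off against 2 weeks on (10.6% and 1.68%) or between the repressed groups (0.00642% and 0%).

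The 4 comparisons of Ckb against the hearts before induction share those hearts and are no independent evidence of each other. Each was called in every alternative tried, including leaving out any single heart. Without both hearts that had Xist signal, the changes were 1.12 at 2 weeks on, 1.19 at 2 days off, 1.51 at 6 weeks on and 0.91 at 2 weeks off. With the Actb ratio of each array as a covariate they were 1.27, 1.29, 1.71 and 1.02.

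**Figure D2:**
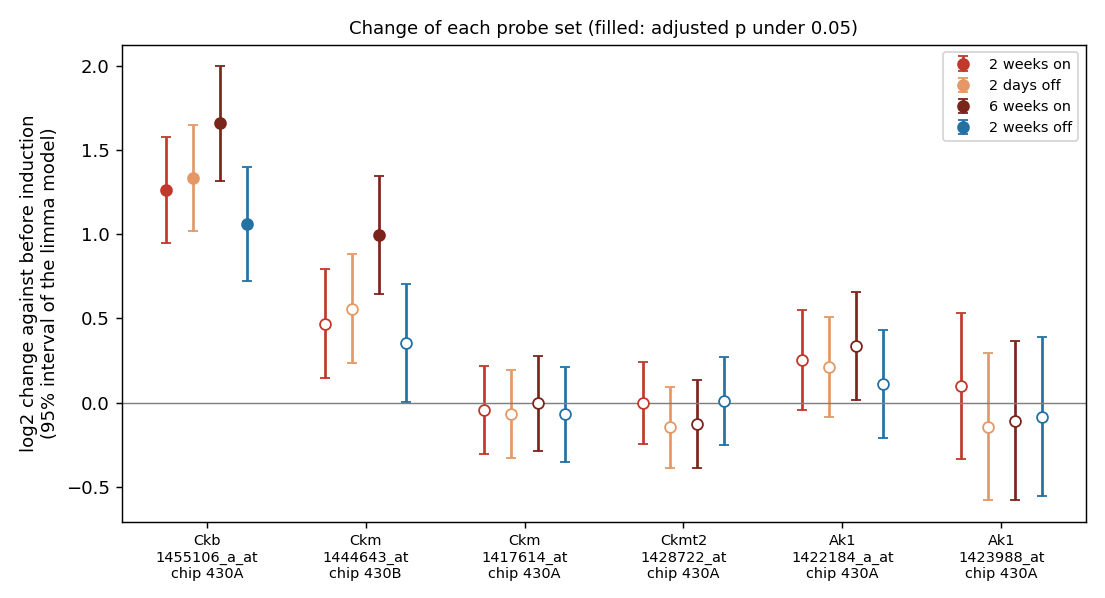
Log2 change of each of the 6 member probe sets against the hearts before induction in the 4 later groups, with the 95% interval of the limma model and filled points for called changes. Ckb lies at 1.26, 1.33, 1.66 and 1.06 and the Ckm probe set of chip 430B at 1.00 at 6 weeks on, and no other point is filled.

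Ckm, the muscle isoform, is measured by a bright probe set on chip 430A, on which no change was called in any comparison. Before induction it gave 24836, 21818, 21864 and 22653 (22793 ± 1415, SD, n = 4), and at 2 weeks on 27270, 22993, 20238 and 18647 (22287 ± 3776, n = 4). The hearts at 2 days off gave 17708, 22321, 23853 and 23615 (21874 ± 2858, n = 4). At 6 weeks on the signals were 24040, 21029 and 23043 (22704 ± 1534, n = 3), and at 2 weeks off 21207, 19433 and 24695 (21778 ± 2677, n = 3).

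The groups overlapped in every comparison. The change at 2 weeks on was -0.05 (95% interval -0.31 to 0.22, adjusted p = 0.871) and at 6 weeks on -0.01 (-0.29 to 0.28, adjusted p = 0.981). Against the hearts before induction, the 2 repressed groups both differed by -0.07, with intervals of -0.33 to 0.20 at 2 days off and -0.35 to 0.21 at 2 weeks off. These intervals cover only the variation among hearts with the signals as deposited, and a missed threshold does not show that the level stayed the same. With quantile normalization, the change at 2 days off against before induction lay above the upper end of its interval. With arrays set to a common median, the 6-week change of Ckm was 0.20 instead of -0.01, and the median of all chip 430A changes moved from -0.11 to 0.08.

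The second Ckm probe set, on chip 430B, did not behave like the first. Before induction it gave 294.3, 338.8, 291.7 and 284.5 (302.4 ± 24.6, n = 4), and at 2 weeks on 395.8, 503.3, 417.5 and 380.9 (424.4 ± 54.7, n = 4). At 2 days off the signals were 336.9, 510.2, 427.7 and 552.6 (456.9 ± 95.3, n = 4). The hearts at 6 weeks on gave 585.7, 654.3 and 603.8 (614.6 ± 35.6, n = 3), above every other heart.

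After 2 weeks of repression the 430B probe set of Ckm gave 336.9, 351.3 and 496.5 (394.9 ± 88.3, n = 3). Its rise at 6 weeks on against before induction was 1.00 ± 0.167 (adjusted p = 0.00119), a ratio of means of 2.03, and was called in every alternative tried. The difference at 2 weeks on was 0.47 ± 0.155 (adjusted p = 0.141) although the hearts did not overlap, and at 2 days off it was 0.56 (adjusted p = 0.0839). The latter was called without heart 1 at 2 days off (0.69, adjusted p = 0.046).

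From 6 weeks on to 2 weeks off the 430B probe set of Ckm changed by -0.64 ± 0.179, at the edge of the threshold (adjusted p = 0.0503), with no overlap between the hearts. Without heart 3 at 2 weeks off the change was -0.81 (adjusted p = 0.0247). Against the hearts before induction the 2-week repressed hearts differed by 0.35 (adjusted p = 0.331). No source used here gives the place of this probe set in the transcript, and its signals do not settle which of the pair reports the mature Ckm message.

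**Figure D3:**
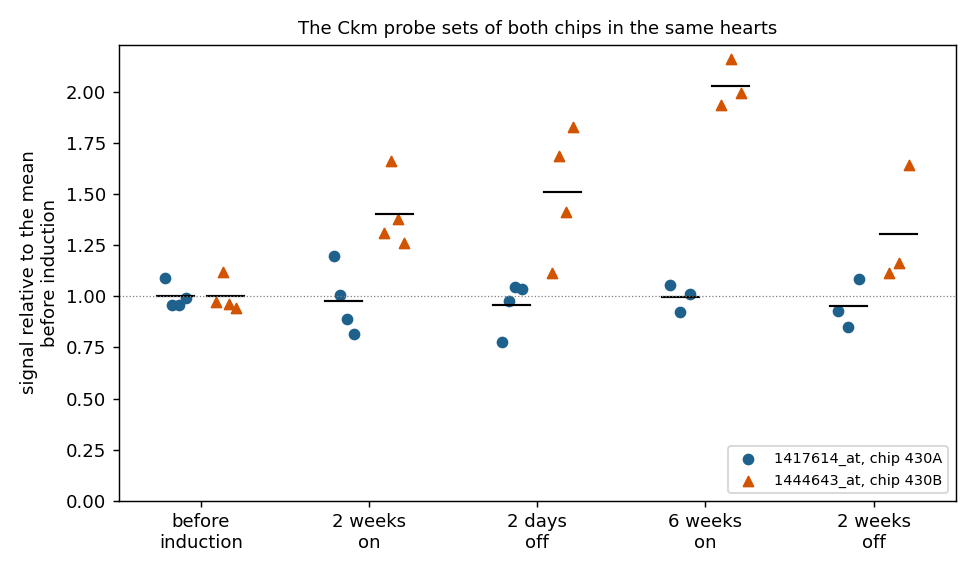
Signals of the Ckm probe sets of chip 430A (circles) and chip 430B (triangles) in each heart by group, divided by the mean of the same probe set before induction, with lines at the group means. At 6 weeks on the mean of the 430B probe set lies at 2.03 and that of the 430A probe set at 0.996.

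Ckmt2, the mitochondrial isoform, was called in no comparison. Its signals were 18265, 17501, 17142 and 14910 before induction (16954 ± 1441, SD, n = 4) and 20636, 16748, 15812 and 14851 at 2 weeks on (17012 ± 2538, n = 4). The hearts at 2 days off gave 14456, 14129, 15457 and 17206 (15312 ± 1384, n = 4). At 6 weeks on the signals were 16107, 13315 and 17313 (15579 ± 2050, n = 3), and at 2 weeks off 16596, 16941 and 17558 (17032 ± 487, n = 3).

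The groups of Ckmt2 overlapped in each comparison with the hearts before induction. The changes against those hearts were -0.0024 at 2 weeks on (95% interval -0.24 to 0.24, adjusted p = 0.994), -0.15 at 2 days off (-0.39 to 0.09, adjusted p = 0.516), -0.13 at 6 weeks on (-0.39 to 0.13, adjusted p = 0.5) and 0.01 at 2 weeks off (-0.25 to 0.27, adjusted p = 0.976).

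Ak1, the adenylate kinase, had 1 bright and 1 dim probe set, and neither was called in any comparison. The bright probe set gave 7239, 4348, 5932 and 5093 before induction (5653 ± 1240, SD, n = 4), where heart 1 lay well above the rest. The signals were 7087, 6069, 7160 and 6243 at 2 weeks on (6639 ± 564, n = 4) and 6171, 7009, 6148 and 6491 at 2 days off (6455 ± 401, n = 4). At 6 weeks on they were 7870, 6134 and 7173 (7059 ± 874, n = 3), and at 2 weeks off 5573, 5244 and 7400 (6072 ± 1161, n = 3).

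The mean of Ak1 was highest at 6 weeks on, but the ranges overlapped. Its changes against the hearts before induction were 0.25 ± 0.142 at 2 weeks on (adjusted p = 0.307), 0.21 at 2 days off (adjusted p = 0.423), 0.34 ± 0.153 at 6 weeks on (adjusted p = 0.126) and 0.11 at 2 weeks off (adjusted p = 0.758). Without heart 1 before induction, the 6-week change was 0.46 and was called (adjusted p = 0.0287). The dim probe set ranged from 77.2 to 228.1 over the hearts, with group means of 135.4 before induction, 153.1 at 2 weeks on, 121.9 at 2 days off, 121.7 at 6 weeks on and 126.6 at 2 weeks off.

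The balance of the cytosolic isoforms was compared within each heart as the log2 signal of Ckb minus that of Ckm on chip 430A, of which only the change between groups can be read, since the probe sets differ. This difference ranged from -4.50 to -4.11 before induction, -3.40 to -2.45 at 2 weeks on, -2.98 to -2.71 at 2 days off, -2.68 to -2.57 at 6 weeks on and -3.25 to -3.06 at 2 weeks off. Every heart of the other 4 groups lay above every heart before induction. The shift toward Ckb was 1.31 at 2 weeks on, 1.40 at 2 days off, 1.66 at 6 weeks on and 1.13 at 2 weeks off, each with a two-sided exact permutation p of 0.0286, the smallest these groups allow, or 0.1 after Benjamini-Hochberg adjustment over 14 tests. From 6 weeks on to 2 weeks off it moved by -0.53 (exact p = 0.1, the smallest that 3 against 3 hearts allow, adjusted 0.233). The same difference for Ckmt2 minus Ckm moved by -0.16 to 0.20 between groups, with a lowest exact p of 0.0857. Both differences rest on the 430A probe set of Ckm. Its 430B probe set differed from before induction by 0.47 at 2 weeks on, not called, and by 1.00 at 6 weeks on, called. The shift of Ckb against that probe set was not computed.

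Over the 18 hearts, Ckb followed the Ckm probe set of chip 430B (Pearson r = 0.82) and not that of chip 430A (r = -0.02). The 2 Ckm probe sets had r = 0.22, Ckm on chip 430A and Ckmt2 r = 0.61, and Ckb and the bright Ak1 probe set r = 0.58. These describe hearts that share groups and arrays, and carry no test. Of 14282 probe sets of other genes on chip 430A, those most like Ckb in log2 signal were Rasl10a (r = 0.949), Ryr1 (r = 0.944), the calcium release channel of skeletal muscle, and Myl1 (r = 0.928), a myosin light chain of fast skeletal muscle. The mean signals of Myl1 were 2378, 12409, 12721, 20676 and 13755 and of Ryr1 87.4, 826, 749, 1854 and 645, from before induction over 2 weeks on, 2 days off and 6 weeks on to 2 weeks off.

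Those most like Ckm on chip 430A were Atp2a2 (r = 0.849), the calcium pump of the sarcoplasmic reticulum, Actc1 (r = 0.847), cardiac actin, and Uqcrc1 (r = 0.840), a subunit of respiratory complex III. Those most like Ckmt2 were Myh6 (r = 0.840) and Myl2 (r = 0.820), a heavy and a light chain of ventricular myosin, and Eno3 (r = 0.812), the muscle enolase. For Ak1, compared with 14281 probe sets, they were Cryba4 (r = 0.812), Trp53inp2 (r = 0.785) and Ephx2 (r = 0.778). The 430B probe set of Ckm was most like Ap1s2 (r = 0.885), Pak6 (r = 0.838) and Rbfox3 (r = 0.830) on its own chip. Ckmt2 and the 430A probe set of Ckm were called in no comparison. Variation between arrays was not separated from any of these correlations, which carry no test.

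Markers of other cell types did not all stay level. Of all probe sets on chip 430A, 4.29%, 2.6%, 8.47% and 1.61% were called higher than before induction at 2 weeks on, 2 days off, 6 weeks on and 2 weeks off. The shares called lower were 4.07%, 2.72%, 13% and 1.93%, in the same order. All measured markers except Myh4 are on this chip. Of 10 skeletal muscle markers only Acta1, Myh4 and Atp2a1 passed the filter, with 0 called against before induction, and the 7 below it, among them Myh1, Myh2, Tnnt3 and Pvalb, had group means of 10.3 to 122.7. The 5 smooth muscle markers summed to 3398 to 5178 before induction, 3431 to 4392 at 2 weeks on, 3067 to 8723 at 2 days off, 5153 to 5686 at 6 weeks on and 3115 to 7032 at 2 weeks off. Against before induction 0 of the 5 were called at 2 weeks on and at 2 weeks off, and 1 at 2 days off and at 6 weeks on. That one was Cnn1, a smooth muscle calponin, with changes of 1.14 at 2 days off (adjusted p = 0.0366) and 1.96 at 6 weeks on (adjusted p = 0.00048). From 6 weeks on to 2 weeks off Cnn1 changed by -1.11 (adjusted p = 0.0344), and no other smooth muscle marker was called. Its means before induction and at 2 weeks on, 48 and 84.5, lay below the filter level of 100.04. Its mean over all hearts passed that level only through the later groups.

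Of the 4 fibroblast markers, Col1a1, a chain of type I collagen, was called higher than before induction in the same 4 groups as Ckb, with changes of 0.88 at 2 weeks on, 1.06 at 2 days off, 1.12 at 6 weeks on and 1.31 at 2 weeks off (adjusted p = 0.0256, 0.0131, 0.00483 and 0.00725). The other 3, Pdgfra, Dcn and Lum, were not called against before induction, and the 4 together summed to 18924 to 23275 before induction and 19545 to 23926 at 6 weeks on. Most of this sum was Dcn, with means of 15594 before induction and 15362 at 6 weeks on, so it shows little of the others. Of the 4 macrophage and leukocyte markers 0 were called against before induction, with sums of 2541 to 3535 there and 2858 to 3273 at 6 weeks on. The sums were 2823 to 3110 at 2 weeks on, 2797 to 4367 at 2 days off and 3126 to 4613 at 2 weeks off. From 6 weeks on to 2 weeks off 1 of the 4 was called higher (11.4% of all probe sets on chip 430A). Of the 4 endothelial markers, which summed to 4296 to 4953 before induction and 2728 to 3739 at 6 weeks on, 3 were called lower at 6 weeks on (13% of all probe sets on chip 430A). Of 5 nerve and Schwann cell markers Mbp and Gfap were measured, with sums of 349.7 to 520.8 before induction and 227.3 to 354 at 6 weeks on, where Mbp was called lower (-1.05, adjusted p = 0.00438). Of 5 erythroid markers 2 were measured, and Alas2 was called lower at 6 weeks on (-1.74, adjusted p = 0.00735). The 4 atrial markers spread from 1805 to 66544 within the hearts before induction alone, with 0 called. The part of these cells in the Ckb signal was not tested.

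The wider phosphate transfer pathway was described with 40 listed genes, of which 33 had a probe set of their own above the filter. Chip 430A held 26 of these and chip 430B the other 7, and each count below is followed by the share of all probe sets called in that direction on chip 430A and then on chip 430B. At 2 weeks on against before induction 4 of the 33 were called higher (4.29% and 1.22%) and 3 lower (4.07% and 0.816%). The 6-week induced hearts had 6 higher (8.47% and 3.14%) and 3 lower (13% and 2.71%). From 2 to 6 weeks on 4 were higher (2.72% and 0.776%) and 0 lower (3.86% and 1.03%). From 2 weeks on to 2 days off 3 were higher (9.47% and 1.57%) and 5 lower (8.56% and 0.782%), and from 6 weeks on to 2 weeks off 2 were higher (11.4% and 2.15%) and 4 lower (7.74% and 1.46%). Against before induction, 2 were higher (2.6% and 1.03%) and 1 lower (2.72% and 0.348%) at 2 days off, and 2 higher (1.61% and 0.782%) and 0 lower (1.93% and 0.93%) at 2 weeks off. The median change of the 33 was -0.06 at 2 weeks on and 0.12 at 6 weeks on, against -0.05 and -0.11 over all probe sets tested on chip 430A. In 3 alternatives added after these values were seen, no called gene changed its direction. Without both hearts that had Xist signal, 5 of the 7 calls at 2 weeks on and 8 of the 9 at 6 weeks on against before induction were kept, 1 of 3 at 2 days off and 1 of 2 at 2 weeks off. The calls lost in this smaller set of hearts were those of Ampd2 at 2 weeks on (0.66, adjusted p = 0.155), Prkag1 at 2 days off (-0.44, adjusted p = 0.203) and Vdac2 at 6 weeks on (-0.43, adjusted p = 0.099). Those of Prkab2 in the 3 groups other than 6 weeks on were also lost (adjusted p = 0.190, 0.0529 and 0.0895), at changes of 0.74, 1.08 and 0.99 against 0.72, 1.06 and 0.98 with all hearts. With arrays at a common median, Slc6a8 and Prkab1 were no longer called at 2 weeks on (-0.42 and -0.45, adjusted p = 0.0961 and 0.103) or from there to 2 days off (0.32 and 0.29, adjusted p = 0.151 and 0.233). Prkab2 at 2 weeks on (0.77, adjusted p = 0.0807) and Vdac2 at 6 weeks on (-0.26 instead of -0.46, adjusted p = 0.272) were also lost. With quantile normalization, Vdac3 from 6 weeks on to 2 weeks off was lost (-0.38 instead of -0.51, adjusted p = 0.0891), leaving 5 of 6 calls in that comparison.

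In creatine synthesis and transport, Gamt, which methylates guanidinoacetate to creatine, was, like Ckb, higher in all 4 groups taken after induction began. Its mean signal was 309 ± 16.1 (SD, n = 4) before induction, 692 ± 85.9 at 2 weeks on, 633 ± 75.0 at 2 days off, 614 ± 59.0 at 6 weeks on and 613 ± 94.1 at 2 weeks off. The changes were 1.04, 0.92, 0.88 and 0.88 (adjusted p = 4.12e-05, 0.000428, 0.000187 and 0.00164), and Gamt was not called between 6 weeks on and 2 weeks off. Slc6a8, the creatine transporter, fell by 0.52 at 2 weeks on (adjusted p = 0.00806), from 2790 to 1932, and rose by 0.44 from there to 2 days off (adjusted p = 0.0122). Its brighter probe set was not called at 6 weeks on against before induction (0.25, adjusted p = 0.159), where its other probe set was called lower. Gatm, the first enzyme of creatine synthesis, did not pass the filter.

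Among the remaining kinases, Ckmt1, the ubiquitous mitochondrial creatine kinase, had group means of 96.7 to 158.2 and was called in no comparison. Ak4, an adenylate kinase of the mitochondrial matrix, had mean signals of 713 before induction, 737 at 2 weeks on, 500.3 at 2 days off, 1193 at 6 weeks on and 528 at 2 weeks off. It rose by 0.71 at 6 weeks on (adjusted p = 0.00388) and fell by 1.10 with 2 weeks of repression (adjusted p = 0.000346), while 3 other Ak4 probe sets were not called. Ak7, on chip 430B, rose by 1.40 at 6 weeks on (adjusted p = 0.014), from 96.3 to 269.8. Nme1, a nucleoside diphosphate kinase with a close relative in Nme2 whose transcripts these probes may share, had means of 569, 1332, 664, 1449 and 502.5 in the same order, and was called in both directions with induction and repression.

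The changes of Nme1 were 1.15 at 2 weeks on (adjusted p = 0.000627), -0.94 from there to 2 days off (adjusted p = 0.00184), 1.27 at 6 weeks on (adjusted p = 0.000206) and -1.42 from there to 2 weeks off (adjusted p = 0.000229). Unlike the Ckb signal, that of Nme1 was not called different from the hearts before induction in either repressed group, though the difference between the genes was not tested.

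Of the enzymes acting on AMP, Ampd3, an AMP deaminase, had means of 679, 843, 654, 1483 and 765 in the same order of groups. It rose by 1.08 at 6 weeks on (adjusted p = 0.00023) and fell by 0.93 from there to 2 weeks off (adjusted p = 0.0017). Ampd2, another AMP deaminase, rose by 0.75 at 2 weeks on (adjusted p = 0.0149) and fell by 0.85 from there to 2 days off (adjusted p = 0.0042), while its other probe set was not called. Of the 7 genes for AMP-activated kinase subunits, 1 was called higher (all probe sets of chips 430A and 430B, 4.29% and 1.22% at 2 weeks on, 8.47% and 3.14% at 6 weeks on) and 1 lower (4.07% and 0.816%, then 13% and 2.71%) at both times. These were Prkab2, with changes of 0.72 and 1.30 (adjusted p = 0.0477 and 0.000602), and Prkab1, with changes of -0.55 and -0.86 (adjusted p = 0.011 and 0.000292), both beta subunits. Prkab1 rose by 0.90 after 2 weeks of repression (adjusted p = 0.000535), and Prkab2 was still higher than before induction by 0.98 (adjusted p = 0.0167). The other Prkab1 probe set was called lower at 6 weeks on against before induction, but not at 2 weeks on or with repression. Prkag1, a gamma subunit, was lower than before induction at 2 days off, by a log2 change of -0.57 (adjusted p = 0.0333), where its other probe set was not called.

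Among the 3 M-band genes, Myom2, which encodes the M-protein that anchors muscle creatine kinase, had mean signals of 4649 before induction, 264.9 at 2 weeks on, 3644 at 2 days off, 921.5 at 6 weeks on and 4038 at 2 weeks off. Its changes were -4.01 at 2 weeks on (adjusted p = 4.19e-07) and -2.24 at 6 weeks on (adjusted p = 0.00023), and it rose by 3.66 and 2.05 with early and late repression (adjusted p = 1.05e-06 and 0.00114). Myom1 and Myom3 were called in none of these comparisons. By their brightest probe sets, 0 of 5 mitochondrial carrier and pore genes were called at 2 weeks on (all probe sets of chip 430A, 4.29% higher and 4.07% lower). Of 7 other probe sets of Slc25a5, an adenine nucleotide carrier, 4 were called higher at 2 weeks on and 3 at 6 weeks on. Of 3 other Vdac1 probe sets 1 was called lower at 2 weeks on. Vdac2, an outer membrane channel, fell by 0.46 at 6 weeks on (adjusted p = 0.0243). Its relative Vdac3 fell by 0.59 from 2 weeks on to 2 days off (adjusted p = 0.00663).

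**Figure D4:**
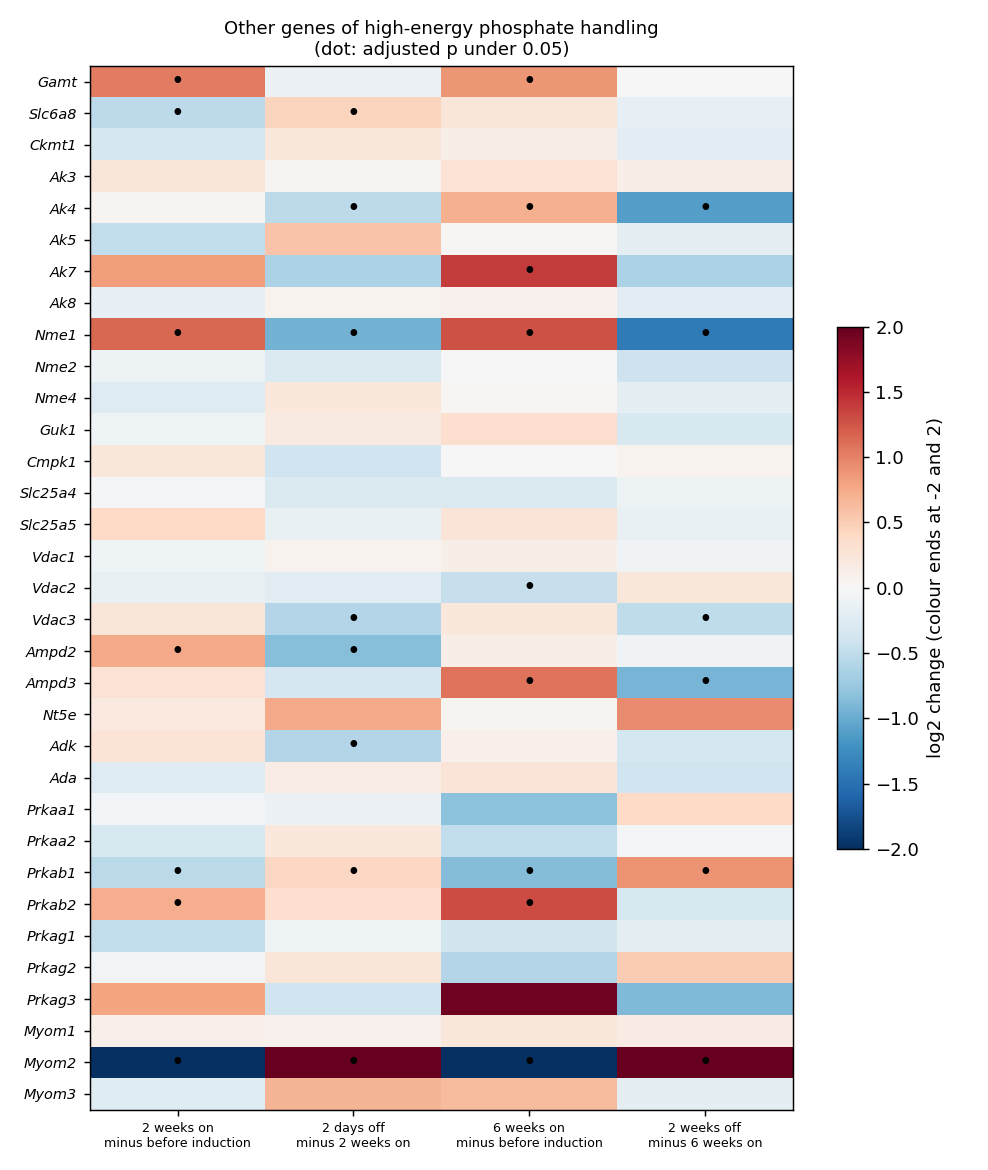
Log2 change of the 33 measured pathway genes (rows) in 4 comparisons between groups (columns), in a colour scale that ends at -2 and 2, with a dot where the change was called. Nme1, Prkab1 and Myom2 carry a dot in all 4 columns, and Myom2, at -4.01 in the first, lies beyond the scale in each.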

How the data were processed

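The deposited values were linear intensity values, 1 signal per probe set and array, made by the authors with MAS5, per the submitters' processing notes (no version stated in the sources used here). They were used as deposited, since the 2% trimmed mean was 500.2 on every 430A array and 122.5 on every 430B array to within 0.006%. Control probe sets were left out. Gene symbols came from the platform annotation. Probe sets with a mean signal over all hearts of at least 20% of the trimmed mean were kept (15565 and 17519). After an offset of 10% of the trimmed mean, log2 values were fitted per chip with limma 3.58.1 in R 4.3.3 (lmFit, eBayes with trend), with 1 mean per group and 1 spread shared by the 18 hearts. The fit was tested on simulated data.

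Named genes were all member probe sets, called pathway genes, given by the brightest probe set, the 3 most similar genes per member, and Akt1. Up to 4 called pathway genes per comparison by adjusted p were planned, and others, among them Ak7 and Vdac2, are also named. Ckmt1, Gatm, Myom1 and Myom3, and the marker genes, are named to account for their lists. The members and lists were chosen with earlier results of these data known. Replicate numbers did not pair the hearts, which came from individual mice. Batches could not be tested.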

Additional observations from a re-analysis of the deposited data

How the results depend on the processing

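The Ckb calls against the hearts before induction and the 6-week call of Ckm on chip 430B held in every alternative tried. The count of members called changed as follows: from 1 to 2 at 2 days off against before induction and from 0 to 1 at 2 days off against 6 weeks on with arrays at a common median, and from 1 to 2 at 2 weeks off against 6 weeks on with an offset of 20%, a filter of 50% or the replicate number as a block. Leaving out 1 heart gave 1 to 2 in the first and 0 to 2 in the last. The count at 6 weeks on against before induction became 2 to 3, since the bright Ak1 probe set was called without heart 1 before induction. The replicate block changed no other member count. Of 33 pairs of hearts with the same number, 5 deviated together with r above 0.1 on chip 430A (r from -0.16 to 0.33). Of 96 pairs with different numbers, 17 did so (r from -0.26 to 0.35). None of the changes that reversed was called on either side, and the cause was not tested. With a common median they were, for Ckm on chip 430A, 0.054 at 2 weeks on and 0.20 at 6 weeks on, for Ckmt2 0.096 and 0.082 there and -0.012 from 6 weeks on to 2 weeks off, for Ckb -0.055 from 2 weeks on to 2 days off, and for the dim Ak1 probe set 0.045 at 6 weeks on and -0.087 from there to 2 weeks off. With quantile normalization, again for the changes that reversed, Ckm on chip 430A was 0.038 at 2 weeks on against before induction, 0.17 at 2 days off against 2 weeks on, 0.21 at 2 days off against before induction, 0.21 at 6 weeks on against before induction and 0.20 at 2 weeks off against before induction. Ckmt2 was 0.040 at 2 weeks on against before induction, 0.051 at 2 days off against 2 weeks on and 0.091 at 2 days off against before induction in the same setting. The bright Ak1 probe set was 0.14 at 2 days off against 2 weeks on. The dim Ak1 probe set was 0.078 at 6 weeks on against before induction and -0.091 at 2 weeks off against 6 weeks on. The Ckb minus Ckm difference was -0.056 at 2 days off against 2 weeks on. With the Actb ratio as a covariate Ckm on chip 430A was 0.0046 at 2 days off against 2 weeks on, and with the replicate block Ckmt2 was -0.011 at 2 weeks off against before induction. Without both hearts with Xist signal Ckmt2 was -0.070 there, and the Ckmt2 minus Ckm difference was -0.0052 at 2 weeks on. The remaining reversals came from leaving out 1 heart at a time, and the ranges follow. The dim Ak1 probe set ran from -0.064 to 0.23 at 2 weeks on against before induction, -0.13 to 0.13 at 2 weeks off against 6 weeks on and -0.24 to 0.020 at 2 weeks off against before induction. Ckm on chip 430A ran from -0.15 to 0.035 at 2 weeks on against before induction, -0.10 to 0.080 at 2 days off against 2 weeks on, -0.11 to 0.031 at 2 days off against before induction, -0.048 to 0.048 at 6 weeks on against before induction, -0.041 to 0.14 at 6 against 2 weeks on, -0.16 to 0.014 at 2 weeks off against 6 weeks on, -0.16 to 0.0078 at 2 weeks off against before induction and -0.14 to 0.038 for the late against the early response to repression. Ckmt2 ran from -0.10 to 0.059 at 2 weeks on against before induction and -0.050 to 0.047 at 2 weeks off against before induction. Ckb ran from -0.026 to 0.16 at 2 days off against 2 weeks on. Ckm on chip 430B ran from -0.0095 to 0.22 at 2 days off against 2 weeks on. The bright Ak1 probe set ran from -0.039 to 0.24 at 2 weeks off against before induction. The Ckb minus Ckm difference ran from -0.053 to 0.26 at 2 days off against 2 weeks on. The Ckmt2 minus Ckm difference ran from -0.015 to 0.080 at 2 weeks on against before induction.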
